A study of Mus musculus with 10 samples.

Results

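Replication-dependent histone genes encode the core histones H2A, H2B, H3 and H4 and the linker histone H1 that package newly copied DNA. They were taken here as the rows of the deposited kidney expression table whose gene symbol begins with Hist1h, Hist2h, Hist3h or Hist4h. One row was kept per symbol, the one with the highest mean over the 10 arrays. This gave 48 genes, of 30894 genes tested in all, with 38 in the Hist1 cluster on mouse chromosome 13, 7 in Hist2 on chromosome 3, 2 in Hist3 on chromosome 11 and 1, Hist4h4, on chromosome 6. By class there were 5 H1, 15 H2A, 15 H2B, 9 H3 and 4 H4 genes. The RefSeq table lists 46 of them as protein coding and 2, Hist1h2al and Hist3h2bb-ps, as pseudogenes.

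These genes are unusual among animal protein-coding genes in that most lack introns and their mRNAs end in a conserved stem-loop in place of a poly(A) tail. The stem-loop binding protein SLBP and the U7 small nuclear ribonucleoprotein cut the precursor just after the stem-loop, and the mRNA is made mainly in S phase, with NPAT as an activator downstream of cyclin E and CDK2. When replication stops, the mRNAs are degraded quickly. In tissues with few dividing cells, some of the same genes are also known to give polyadenylated mRNAs. The array used here has probes along the transcript and does not read stem-loop and polyadenylated ends apart.

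The compared kidneys came from mice given cyclosporin A (CsA), an immunosuppressant that inhibits calcineurin, and from mice given only the cremophore solvent, called vehicle here, with 5 samples and 5 arrays in each group. CsA was given at 60 mg/kg under the skin once a day for 7 days, and RNA was taken from kidneys that were halved and ground frozen. All mice were 10 to 12 weeks old, ate a low sodium chow of 0.05%, and belonged to a C57BL/6 line in which doxycycline can delete Vhl through Pax8-rtTA, a driver active in renal tubules. Whether doxycycline had been given is not stated in the labels, and Vhl differed by -0.00 ± 0.09 log2 units (SE) between the groups (limma adjusted p = 0.993). The labels do not state that each sample is a separate animal, so p-values measure the spread between these samples only. All 10 kidney markers examined were read, with mean log2 values of 6.66 to 12.72.

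RNA from females was present on CsA replicates 1 and 2, which the labels do not mention. Xist, the X-inactivation transcript, read 9.21 and 9.15 on these arrays and at most 4.82 on the other 8, while 4 Y-linked genes (Ddx3y, Uty, Kdm5d and Eif2s3y) had median values of 4.0 and 3.86 against 6.87 to 7.83. For the histone genes that passed the threshold, and where removing these arrays turned a call of a named gene or the sign of a list's median, values for the 8 arrays with male RNA are therefore also given. Values are log2 expression values, and a difference is CsA minus vehicle on that scale. A gene was counted as risen or fallen at a limma adjusted p under 0.05, with Benjamini-Hochberg adjustment over all 30894 genes.

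Of the 48 histone genes, 8 rose in CsA kidneys and 0 fell. Those that rose were Hist1h4k, Hist2h2ac, Hist2h2ab, Hist1h2an, Hist1h2ao, Hist1h3a, Hist2h2aa1 and Hist1h2bp, by 1.26-fold to 1.58-fold. They made up 16.7% of the 48, beside 2.95% of all genes that rose and 3.54% that fell, and 6.49% that changed in either direction. In the 8 male arrays 5 histone genes rose and 0 fell, beside 1.53% and 1.64% of all genes, or 3.17% in either direction. Whether the share among histone genes differs from that among all genes was not tested, and genes with near-identical sequences are not independent of each other. In whole kidney RNA, more cells that express a histone gene and more of its RNA in each cell cannot be told apart.

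Most histone genes moved little. The median difference over the 48 was 0.08, beside 0.01 over all genes, and the range was -0.35 to 0.66. Differences lay above 0 for 32 of 48 (66.7%, beside 51.7% of all genes), and 14 had an unadjusted p under 0.05 (20.8% of all genes did). In the male arrays the median was 0.07. The median reading over the 48 genes was 4.59, 4.21, 4.69, 4.66 and 4.72 on CsA replicates 1 to 5 and 4.37, 4.66, 4.58, 4.33 and 4.41 on vehicle replicates 1 to 5. These medians overlapped, with the lowest of all in CsA replicate 2. For 8 genes, the same 8 that rose, every CsA array lay above every vehicle array, as it did for 4.04% of all genes. For 0 genes did every CsA array lie below, against 5.05% of all genes.

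Many of these genes gave low readings. The mean reading was under 5.26, the median of all genes, for 28 of the 48 and under 3.96, the 25th percentile, for 20. Readings ran from 1.62 for Hist1h2ak to 11.32 for Hist1h2bc. Each reading depends on a gene's probes, so readings of different genes are not compared as amounts. Differences of genes with low readings can be compressed on this scale.

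**Figure D1:**
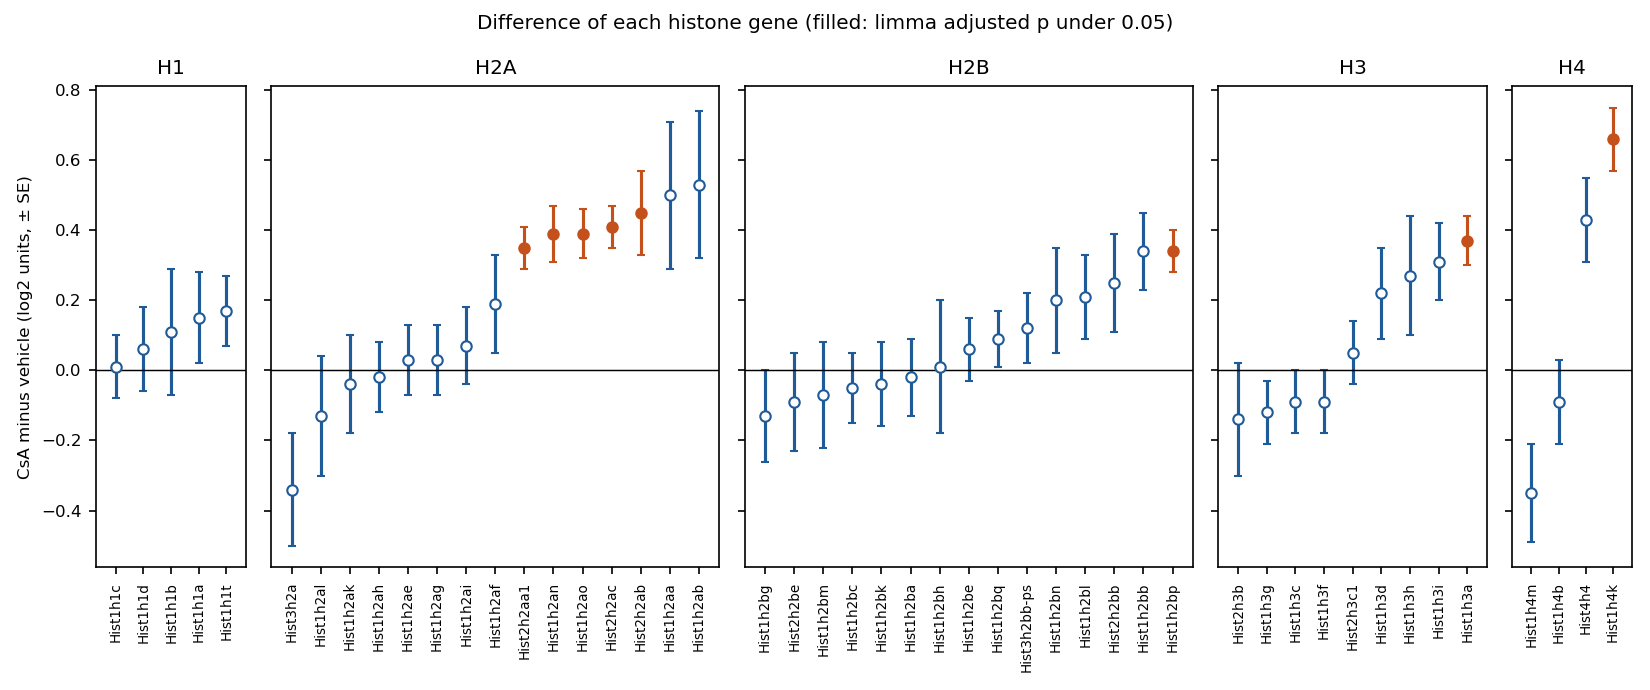
Difference between CsA and vehicle kidneys (log2 units, y axis) for each of the 48 histone genes (x axis), by histone class and in order of the difference. Points are limma estimates with their SE over 5 arrays per group, and filled points had an adjusted p under 0.05. The 8 filled points lie between 0.34 and 0.66, 5 of them among the H2A genes.

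H4, with H3, forms the tetramer at the core of the nucleosome. Hist1h4k (H4c12 in current naming) showed the largest difference of the 48. It read 9.30, 9.04, 9.21, 8.88 and 8.99 in CsA replicates 1 to 5 and 8.43, 8.36, 8.49, 8.27 and 8.60 in vehicle replicates 1 to 5. The groups did not overlap, and the lowest CsA array lay above the highest vehicle array. The difference was 0.66 ± 0.09 (SE), 1.58-fold (limma adjusted p = 0.00227), and 0.60 in the male arrays (adjusted p = 0.0183).

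The rows kept for the other 3 H4 symbols did not pass the threshold. Hist4h4, which lies on its own away from the clusters, read 7.54, 7.70, 7.68, 7.27 and 7.43 with CsA and 7.29, 7.15, 7.32, 6.96 and 6.77 with vehicle. One CsA array, replicate 4, lay within the vehicle range, and the difference was 0.43 ± 0.12 (limma adjusted p = 0.055). Without CsA replicate 4 its adjusted p was 0.0394. The row kept for Hist1h4m, its brightest feature, read 6.22, 5.74, 6.23, 5.79 and 6.07 with CsA and 6.27, 6.63, 6.62, 5.98 and 6.32 with vehicle. The difference was -0.35 ± 0.14 (limma adjusted p = 0.169) with overlapping groups. Another feature of that symbol rose, by 0.41 ± 0.07 (limma adjusted p = 0.0114 over all features). Hist1h4b differed by -0.09 ± 0.12. The 4 rows kept had a median difference of 0.17.

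The DNA just upstream of Hist1h4k, Hist4h4 and Hist1h4m is shown because these 3 share an element there. The symbol Hist1h4m covers 11 array features of unlike difference, so its value cannot be tied to the 1 promoter shown: the -0.35 is that of the brightest, and the feature whose first listed accession is a RefSeq transcript differed by 0.41. Each line holds the 150 bases before the start of the gene, from RefSeq on build GRCm38.p6, at chr13:21750554-21750703 on the minus strand for Hist1h4k, chr6:136804432-136804581 on the minus strand for Hist4h4, and chr13:21811596-21811745 on the plus strand for Hist1h4m. Capitals mark GGTCCG, the core of the H4 cell cycle element that the factor HINFP is known to bind, and TATAA, the box near which transcription starts.
Hist1h4k: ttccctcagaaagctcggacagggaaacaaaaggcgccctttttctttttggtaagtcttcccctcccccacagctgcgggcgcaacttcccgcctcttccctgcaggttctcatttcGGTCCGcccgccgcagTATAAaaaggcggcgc
Hist4h4: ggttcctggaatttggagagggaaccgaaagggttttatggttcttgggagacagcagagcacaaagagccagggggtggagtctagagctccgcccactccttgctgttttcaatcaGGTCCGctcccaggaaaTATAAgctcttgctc
Hist1h4m: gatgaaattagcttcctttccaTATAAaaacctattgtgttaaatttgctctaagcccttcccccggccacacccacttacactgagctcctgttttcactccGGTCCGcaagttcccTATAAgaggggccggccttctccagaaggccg
Counting the last base before the start as -1, GGTCCG began at -32 in Hist1h4k and Hist4h4 and at -47 in Hist1h4m. TATAA began at -16, -15 and -32, with another at -128 in Hist1h4m. Searched on both strands of the 250 bases before each start, GGTCCG was in 3 of 4 H4 windows, all but that of Hist1h4b, and in 6.72% of 32851 windows of all genes. A match describes letters only and does not show that a factor binds.

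H2A and H2B pair as the dimers that flank the tetramer. Among the 15 H2A genes 5 rose and 0 fell, with a median difference of 0.19, and among the 15 H2B genes 1 rose and 0 fell, with a median of 0.06. Those that rose were 33.3% and 6.67% of their class, beside 2.95% of all genes. The difference between the classes was not tested. In the male arrays 2 H2A genes and 1 H2B gene rose, beside 1.53% of all genes.

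The Hist2 cluster holds 3 of the measured H2A genes, and all 3 rose, beside 2.95% of all genes. Hist2h2ac (H2ac20) read 7.33, 7.35, 7.37, 7.33 and 7.21 with CsA and 6.92, 6.96, 6.86, 6.93 and 6.88 with vehicle. Every CsA array was above every vehicle array, and the SDs were 0.06 and 0.04. The difference was 0.41 ± 0.06, 1.33-fold (limma adjusted p = 0.0023; 0.39 and 0.0197 in the male arrays).

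Hist2h2aa1 (H2ac18) read 10.35, 10.24, 10.19, 10.18 and 10.25 with CsA and 9.87, 9.94, 9.96, 9.77 and 9.89 with vehicle, again without overlap. Its difference was 0.35 ± 0.06, 1.28-fold (limma adjusted p = 0.00795; 0.32 and 0.0424 in the male arrays). The symbol had a pair of features with identical values on every array, so they were counted once, and the near-identical neighbour copy cannot be told apart from it.

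Hist2h2ab (H2ac21) read 6.10, 5.69, 5.70, 5.57 and 5.69 with CsA and 5.37, 5.50, 5.07, 5.46 and 5.09 with vehicle. CsA replicate 1, one of the arrays with female RNA, was the highest, and the lowest CsA value, 5.57, was close to the highest vehicle value, 5.50. The difference was 0.45 ± 0.12, 1.37-fold (limma adjusted p = 0.0397). It missed the threshold in the male arrays (0.36, adjusted p = 0.132) and when any of 8 of the 10 arrays was left out: the adjusted p was 0.0635, 0.0723, 0.0677 and 0.0636 without CsA replicates 1, 2, 3 and 5, and 0.0675, 0.0965, 0.0519 and 0.0771 without vehicle replicates 1, 3, 4 and 5.

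The remaining Hist2 genes did not pass the threshold. Hist2h2be, an H2B gene listed beside Hist2h2ac in the RefSeq table, differed by -0.09 ± 0.14, with overlapping readings of 5.31 to 5.78 with CsA and 5.40 to 6.01 with vehicle. Hist2h2bb differed by 0.25 ± 0.14, Hist2h3c1 by 0.05 ± 0.09 and Hist2h3b by -0.14 ± 0.16. Over the 7 genes the median difference was 0.25, beside 0.07 over the 38 Hist1 genes. Of the Hist1 genes 5 rose (13.2%) and of the Hist2 genes 3 (42.9%), beside 2.95% of all genes. The 2 Hist3 genes differed by -0.34 ± 0.16 (Hist3h2a) and 0.12 ± 0.10 (Hist3h2bb-ps).

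The 150 bases before Hist2h2ac (chr3:96220881-96221030, minus strand) and Hist2h2aa1 (chr3:96245347-96245496, plus strand) are shown as the promoters of the pair of Hist2 symbols that rose under every setting examined. Since the neighbour copy of Hist2h2aa1 cannot be told apart from it, the rise of that symbol cannot be tied to the promoter shown. Capitals mark CCAAT, the box that the factor NF-Y is known to bind, on either strand (ATTGG on the other), and TATAA.
Hist2h2ac: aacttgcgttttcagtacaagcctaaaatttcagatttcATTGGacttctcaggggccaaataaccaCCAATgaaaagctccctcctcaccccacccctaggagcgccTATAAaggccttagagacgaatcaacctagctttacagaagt
Hist2h2aa1: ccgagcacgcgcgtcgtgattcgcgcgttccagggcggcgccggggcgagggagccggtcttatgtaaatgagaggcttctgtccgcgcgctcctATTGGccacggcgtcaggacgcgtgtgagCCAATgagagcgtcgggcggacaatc
CCAAT boxes began at -111 and -83 in Hist2h2ac and at -55 and -26 in Hist2h2aa1. TATAA began at -42 in Hist2h2ac, and these letters are not in the window shown for Hist2h2aa1.

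On chromosome 13 the H2A genes Hist1h2an and Hist1h2ao rose. Hist1h2an (H2ac22) read 9.01, 8.78, 8.90, 8.58 and 8.89 with CsA and 8.53, 8.44, 8.40, 8.41 and 8.40 with vehicle. The groups did not overlap, though the lowest CsA value, 8.58, was close to the highest vehicle value, 8.53. The difference was 0.39 ± 0.08, 1.31-fold (limma adjusted p = 0.0144), and 0.35 in the male arrays, where it missed the threshold (adjusted p = 0.0637).

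Hist1h2ao (H2ac23) read 7.5, 7.37, 7.39, 7.21 and 7.33 with CsA and 7.09, 6.95, 7.02, 6.92 and 6.85 with vehicle, also without overlap. The difference was 0.39 ± 0.07, 1.31-fold (limma adjusted p = 0.00912), and 0.34 in the male arrays (adjusted p = 0.0501). Both genes read highest on CsA replicate 1 and lowest within the CsA group on CsA replicate 4.

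The 2 H2A genes with the largest differences varied widely within groups and did not pass the threshold. Hist1h2ab read 5.00, 4.14, 4.81, 4.26 and 4.92 with CsA and 3.86, 3.70, 4.53, 3.94 and 4.47 with vehicle, a difference of 0.53 ± 0.21 (limma adjusted p = 0.162). Hist1h2aa, a testis-type H2A, read 5.64, 6.14, 5.72, 4.73 and 5.44 with CsA and 4.76, 5.18, 5.19, 5.19 and 4.86 with vehicle. Its CsA replicate 4 was the lowest of all 10 arrays, and the difference was 0.50 ± 0.21 (limma adjusted p = 0.197). The adjusted p was 0.0212 without that array, while in the male arrays the difference was 0.26 (adjusted p = 0.538).

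Hist3h2a had the lowest difference among the H2A genes. It read 6.05, 5.54, 5.82, 6.05 and 6.08 with CsA and 6.56, 6.4, 6.28, 6.35 and 5.66 with vehicle, where replicate 5 was the only vehicle array within the CsA range. The difference was -0.34 ± 0.16 (limma adjusted p = 0.254), and without vehicle replicate 5 it was -0.48 (adjusted p = 0.0341). The other 7 H2A genes differed by -0.13 to 0.19.

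**Figure D2:**
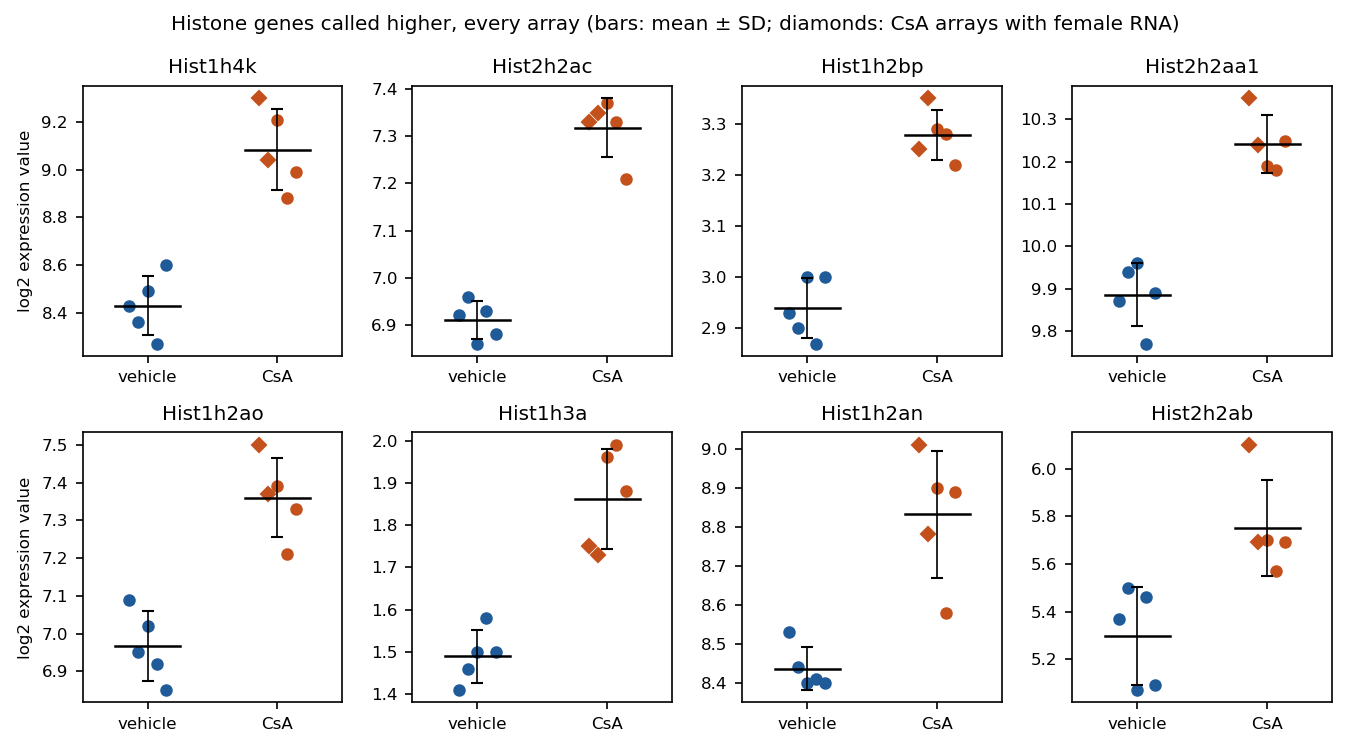
Log2 expression value (y axis, range set for each gene) of the 8 histone genes that rose, on each of the 5 vehicle and 5 CsA arrays (x axis). Points are arrays, diamonds are the CsA arrays with female RNA, and bars give the mean ± SD. Every CsA point lies above every vehicle point in each gene, with the closest approach in Hist1h2an (8.58 and 8.53) and Hist2h2ab (5.57 and 5.50).

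Among the H2B genes only Hist1h2bp (H2bc22) passed the threshold, with Hist1h2bb next. Hist1h2bp read 3.25, 3.35, 3.29, 3.28 and 3.22 with CsA and 2.93, 2.90, 3.00, 2.87 and 3.00 with vehicle. These are low readings, at the 14th percentile of all genes, and the groups did not overlap. The difference was 0.34 ± 0.06, 1.26-fold (limma adjusted p = 0.00689; 0.32 and 0.0342 in the male arrays).

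Hist1h2bb read 6.11, 5.99, 6.17, 5.92 and 5.67 with CsA and 5.86, 5.57, 5.51, 5.41 and 5.81 with vehicle. CsA replicate 5 lay within the vehicle range, and the difference of 0.34 ± 0.11 had a limma adjusted p of 0.097, or 0.0463 without that array.

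Hist1h2bc, with the highest reading of the 48, read 11.02, 11.21, 11.50, 11.29 and 11.45 with CsA and 11.27, 11.40, 11.33, 11.20 and 11.53 with vehicle. The groups overlapped throughout. Its difference was -0.05 ± 0.10, with a 95% confidence interval of -0.26 to 0.17, and 0.07 in the male arrays. Hist1h2bl and Hist1h2bn, which also read high at 10.15 and 9.46, differed by 0.21 ± 0.12 and 0.20 ± 0.15. The lowest H2B difference was that of Hist1h2bg, -0.13 ± 0.13 (limma adjusted p = 0.636).

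Many H2A and H2B genes stand head to head and share the DNA between their starts. Such pairs were sought only among the 42 of the 48 genes that had a promoter window from RefSeq. They were kept only where the 250 bases before each start met or overlapped. There were 7, with starts 164 to 281 bases apart. Pairs that involve the remaining genes, or whose starts lie further apart than the search allowed, would be missed. In 1 pair, Hist1h2an with Hist1h2bp, both genes rose, by 0.39 and 0.34. In another, Hist1h2ao rose by 0.39 while Hist1h2bq differed by 0.09 ± 0.08 (limma adjusted p = 0.606). Both symbols had a pair of features with identical values, so neither value can be tied to a single promoter. Hist1h2aa and Hist1h2ba, both testis-type, differed by 0.50 ± 0.21 and -0.02 ± 0.11, neither past the threshold. Both genes of the other 4 pairs missed the threshold, with differences of -0.13 to 0.21. Partners were not tested against each other.

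**Figure D3:**
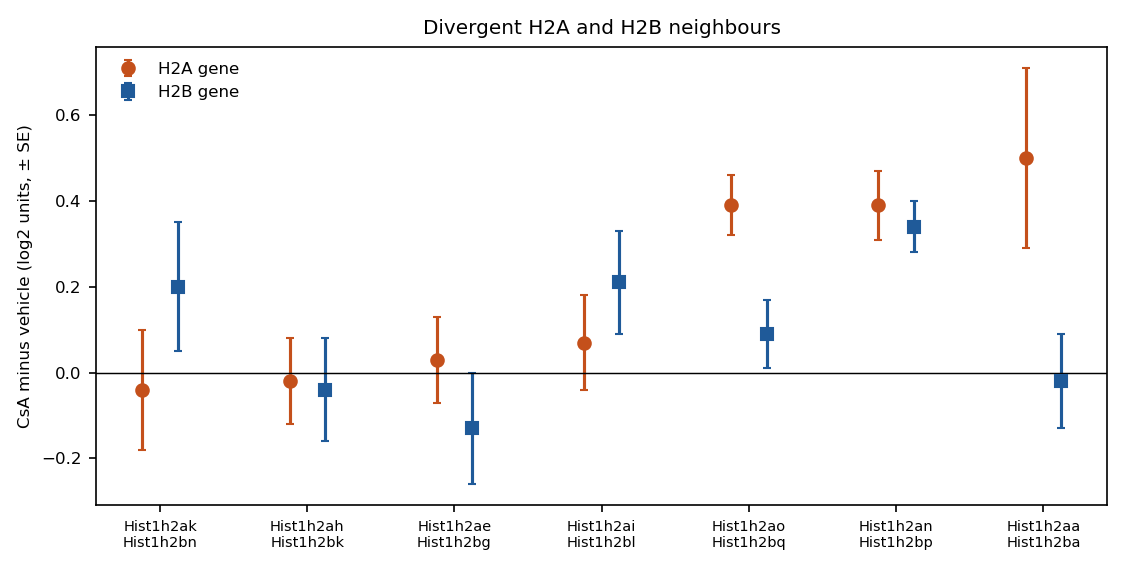
Difference between CsA and vehicle kidneys (log2 units ± SE, y axis) for the H2A gene (circle) and the H2B gene (square) of 7 head-to-head pairs (x axis). Pairs were sought only among histone genes with a promoter window, and where the 250 bases before each start met or overlapped. The partners Hist1h2an and Hist1h2bp lie together at 0.39 and 0.34, while Hist1h2ao at 0.39 stands above its partner Hist1h2bq at 0.09. Hist1h2ao and Hist1h2bq each had a pair of features with identical values.

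The 239 bases between the starts of Hist1h2an and Hist1h2bp (chr13:21787249-21787487, plus strand, GRCm38.p6) are given as the shared region of the pair in which both rose. Hist1h2an is transcribed leftward from its left end and Hist1h2bp rightward from its right end. Capitals mark CCAAT and TATAA on either strand (ATTGG and TTATA on the other).
Hist1h2an and Hist1h2bp: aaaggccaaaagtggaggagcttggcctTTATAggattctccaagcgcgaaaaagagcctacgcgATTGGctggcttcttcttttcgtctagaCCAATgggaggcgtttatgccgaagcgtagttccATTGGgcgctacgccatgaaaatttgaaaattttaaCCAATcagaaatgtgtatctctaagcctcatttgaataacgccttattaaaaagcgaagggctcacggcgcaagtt
CCAAT boxes began at bases 66, 94, 128 and 164 from the left, and TTATA at base 29, on the side of Hist1h2an. CCAAT was in the 250 bases before all 14 H2A and all 13 H2B windows, in 0 of 4 H4 windows and in 33.8% of windows of all genes. It was therefore in windows of H2A and H2B genes that rose and of those that did not. The octamer ATTTGCAT, which Oct-1 is known to bind in H2B promoters, was in 7 of 13 H2B and 6 of 14 H2A windows and in 1.6% of all. TATAA was in 67.4% of the 43 windows matched to 42 of the histone genes and in 22.8% of all.

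H3 was represented by 9 genes, of which 1, Hist1h3a (H3c1), rose and 0 fell. That was 11.1% of the class, beside 2.95% of all genes that rose and 3.54% that fell. Hist1h3a read 1.75, 1.73, 1.96, 1.99 and 1.88 with CsA and 1.41, 1.46, 1.5, 1.58 and 1.5 with vehicle. The groups did not overlap, and the male CsA arrays were the higher ones. The difference was 0.37 ± 0.07, 1.29-fold (limma adjusted p = 0.0107; 0.45 and 0.0127 in the male arrays). With a mean of 1.68 this gene was among the lowest 0.605% of all readings, so the difference lies where a signal is hard to tell from background, and no detection call was used here.

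Hist2h3c1 had the highest reading of the H3 class. Its brightest feature, the one used, read 7.20, 7.35, 7.64, 7.26 and 7.39 with CsA and 7.12, 7.45, 7.37, 7.38 and 7.27 with vehicle. The groups overlapped, and the difference was 0.05 ± 0.09, or 0.11 in the male arrays. Another feature of Hist2h3c1, at a mean reading of 6.71, differed by 0.30 ± 0.12 (limma adjusted p = 0.194 over all features). Hist1h3i differed by 0.31 ± 0.11 (limma adjusted p = 0.137) at a reading of 1.92. The median over the 9 genes was 0.05, or 0.11 in the male arrays and -0.02 without CsA replicate 3.

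H1 binds the linker DNA between nucleosomes, and 0 of its 5 genes changed (6.49% of all genes did). At an unadjusted p under 0.05 there were also 0 (20.8% of all genes). Hist1h1c, the H1 gene with the highest reading, read 7.26, 6.81, 7.11, 7.04 and 6.88 with CsA and 7.08, 7.18, 6.88, 6.98 and 6.95 with vehicle. The groups overlapped, and the difference was 0.01 ± 0.09, with a 95% confidence interval of -0.20 to 0.21. The testis-type Hist1h1t had the largest H1 difference, 0.17 ± 0.10 (limma adjusted p = 0.346), and the class median was 0.11.

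Attribution to single genes has a limit, since histone genes of a class are near-identical in their coding sequence. The 48 symbols came from 70 features, with 1 feature for 39 symbols and several for 9. The symbol Hist1h4m had 11 features, whose differences ran from -0.35 to 0.50. Each had a different first listed transcript, so they may come from different H4 genes given 1 symbol. The brightest feature of Hist1h4m was the one used. The RefSeq one, with a mean reading of 3.24, differed by 0.41 ± 0.07 (limma adjusted p = 0.0114 over all 41345 features). For Hist1h2ao, 2 identical features differed by 0.39 and the third, at a reading of 2.66, by -0.14 ± 0.10. Hist2h3b had 4 features that differed by -0.55 to 0.16, and Hist2h3c1 had 2, at 0.05 and 0.30. Among the genes that rose, Hist1h4k, Hist1h2an, Hist1h2bp, Hist1h3a, Hist2h2ab and Hist2h2ac each had 1 feature. Over all features 4.16% changed.

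**Figure D4:**
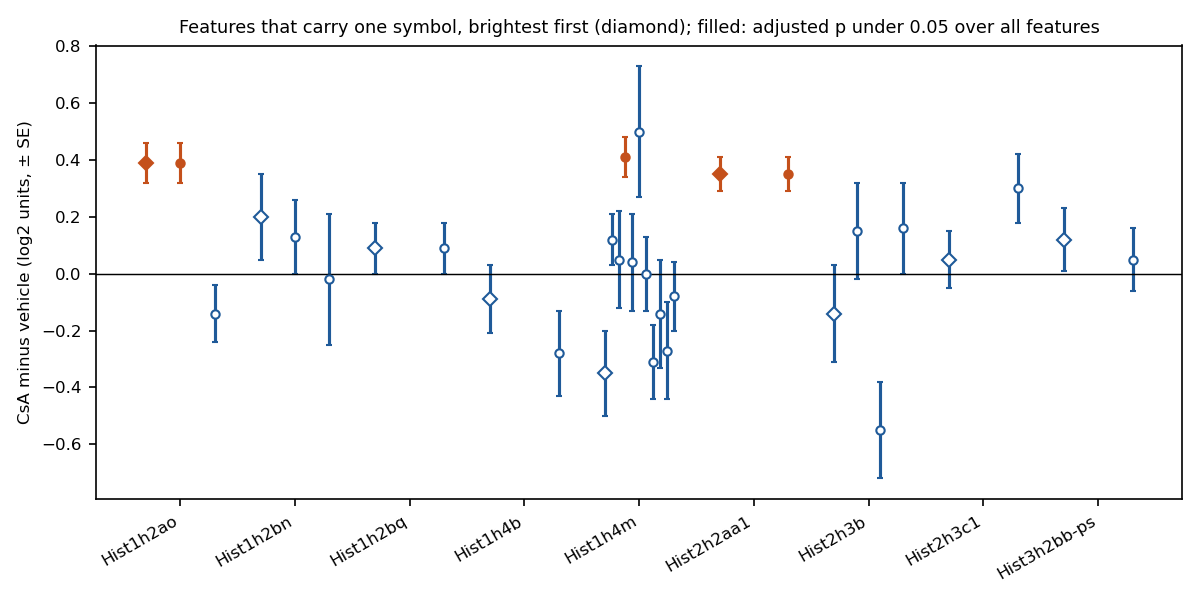
Difference between CsA and vehicle kidneys (log2 units ± SE, y axis) of each array feature that carries one of the 9 histone symbols with several features (x axis), brightest first as a diamond. Filled points had an adjusted p under 0.05 over all features. The 11 features of Hist1h4m spread from -0.35 to 0.50.

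Replacement histones are made outside S phase, mostly from polyadenylated mRNAs. Of 12 listed, 10 were measured, of which 1 rose and 0 fell, with a median difference of -0.04 over all 10 arrays and 0.04 in the male arrays. The one that rose was H2ax, whose protein is phosphorylated at DNA breaks and whose gene also gives a stem-loop mRNA. It read 7.24, 7.06, 7.67, 7.15 and 7.28 with CsA and 6.89, 7.01, 6.83, 6.81 and 6.69 with vehicle, without overlap. The difference was 0.44 ± 0.11 (limma adjusted p = 0.0352; 0.52 and 0.0499 in the male arrays), and the adjusted p was 0.0568 to 0.0777 without CsA replicate 1 or 5 or vehicle replicate 1, 3, 4 or 5. H2az1 differed by -0.08 ± 0.09, H3f3b by -0.08 ± 0.06 and H1f0 by -0.04 ± 0.08.

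Genes that make, process or degrade histone mRNA gave 0 rises and 2 falls among 27 measured of 28 listed, with a median of -0.00. Over all genes 2.95% rose and 3.54% fell. Slbp read 6.52 to 6.64 with CsA and 6.51 to 6.81 with vehicle, a difference of -0.00 ± 0.07. Eri1, the exonuclease that trims the stem-loop end, fell by 0.39 (limma adjusted p = 0.0315), and Cpsf2, a partner of the cutting enzyme, fell by 0.29 (adjusted p = 0.0358). Both missed the threshold in the male arrays, where the differences were -0.36 (adjusted p = 0.131) and -0.23 (adjusted p = 0.159). Npat differed by -0.31 ± 0.09 (limma adjusted p = 0.0608) and by -0.40 in the male arrays (adjusted p = 0.0325), where it was the 1 gene of the list to pass. Casp8ap2 differed by -0.13 ± 0.07 and the U7 particle gene Lsm11 by -0.11 ± 0.10. Eri1 missed the threshold when any of 7 arrays was left out and Cpsf2 when any of 8 was, at an adjusted p of up to 0.0778 and 0.0903. Among 23 measured histone chaperone genes limma called 0 changed, beside 6.49% of all genes. The median difference was -0.02, and 8 had an unadjusted p under 0.05 (20.8% of all genes did).

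Markers of S phase were examined because these histone mRNAs follow DNA replication. Of 35 measured, 1 rose (2.86%, beside 2.95% of all genes) and 1 fell (3.54% of all genes did). The median was 0.03, and 12 had an unadjusted p under 0.05 (20.8% of all genes did). Differences lay above 0 for 21 of the 35 (60%, beside 51.7% of all genes). Tk1, the thymidine kinase of dividing cells, rose by 0.38 ± 0.10 (limma adjusted p = 0.0349), and the replication factor Mcm10 fell by 0.24 (adjusted p = 0.0454). In the male arrays Tk1 (adjusted p = 0.0721) and Mcm10 (adjusted p = 0.0808) missed the threshold, while Uhrf1, which recruits the maintenance DNA methyltransferase, rose by 0.38 (adjusted p = 0.0398). Tk1 also missed it without CsA replicate 2, 3 or 4 or vehicle replicate 1, 2, 3 or 4, and Mcm10 when any 1 of the 10 arrays was left out. The proliferation marker Mki67 differed by 0.40 ± 0.12 (limma adjusted p = 0.0709), Top2a by 0.22 ± 0.09, Rrm2 by 0.23 ± 0.12, Pcna by -0.10 ± 0.06 and Mcm2 by -0.00 ± 0.06.

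Small RNAs without a poly(A) tail, of which some rose, are given as measured values beside the histone genes. Of 9 measured of 13 listed, 5 rose (55.6%, beside 2.95% of all genes) and 0 fell, with a median of 0.46. Rpph1, the RNA of RNase P, rose by 0.71 ± 0.07, Rmrp by 0.69 ± 0.08, Rny1 by 0.84 ± 0.15, Rny3 by 1.04 ± 0.19 and the minor spliceosome RNA Rnu12 by 0.46 ± 0.08 (limma adjusted p = 0.00904 or less for each). Rn7sk, which read 12.78 to 12.92 with CsA and 12.77 to 12.86 with vehicle, differed by 0.05. Rnu11 (0.15), Vaultrc5 (0.21) and the telomerase RNA Terc (-0.39, limma adjusted p = 0.217) also did not pass. Of 107 genes with snoRNA symbols, which guide modification of ribosomal and other RNA, 72 rose (67.3%) and 0 fell. Their median was 0.49. In the male arrays 4 of the 9 small RNAs, those that rose over all arrays except Rnu12 (0.41, adjusted p = 0.0565), and 50 of the snoRNA genes rose. Per the labels the second round of cDNA synthesis was primed at random, and they do not state the primer of the first. The part of such RNAs' behaviour in the histone result was not tested. Neither was that of gene length: 42 of the 48 histone genes fell in 1 of 20 length groups of the RefSeq table, spanning 390 to 942 bases, and with arrays centred within each length group 8 histone genes rose, the same 8.

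**Figure D5:**
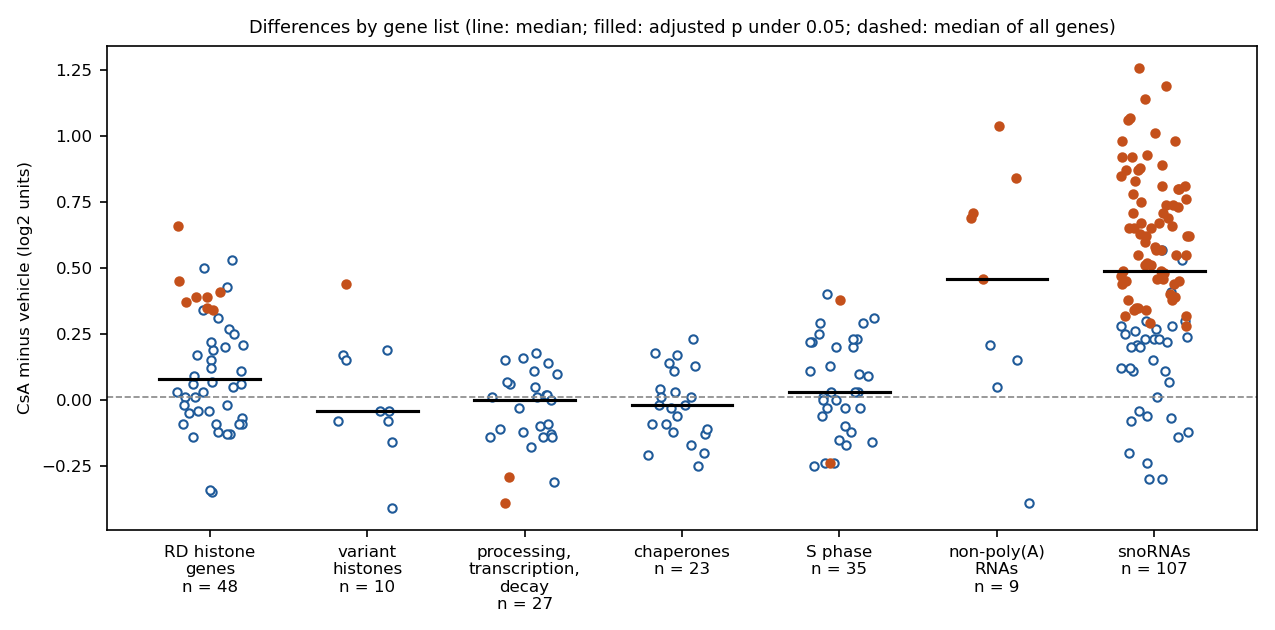
Difference between CsA and vehicle kidneys (log2 units, y axis) of every measured gene in 7 lists (x axis, RD for replication-dependent). Points are genes, filled where the adjusted p was under 0.05, black bars are list medians and the dashed line is the median of all genes. The histone genes have a median of 0.08, the 35 S phase genes 0.03 and the 107 snoRNA genes 0.49.

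Markers of other cells also moved. Of 10 macrophage markers 7 rose (70%, beside 2.95% of all genes) and 0 fell, with a median difference of 0.56. Their summed linear level was 1301 to 1709 with CsA and 842 to 989 with vehicle. Csf1r, Mrc1 and Ptprc did not pass, with differences of 0.09, 0.10 and 0.39, and the 10 markers had mean readings of 5.40 to 8.12. Their part in the histone result was not tested. None of the 7 measured erythroid or 10 lymphocyte markers changed over all 10 arrays (limma; 2 and 1 at an unadjusted p under 0.05), while 1 of 8 adipocyte markers (Retn, by 0.82) and 1 of 10 kidney markers (Cdh16, by 0.24, limma adjusted p = 0.0413) rose. Cdh16 missed the threshold in the male arrays (0.19, adjusted p = 0.164) and when any array other than CsA replicate 4 was left out (adjusted p up to 0.0972). Kap, another kidney marker, read 7.12 and 6.85 on CsA replicates 1 and 2, which carry female RNA, and 12.22 to 12.57 on the other arrays. The difference of Kap was -2.29 ± 1.07 (limma adjusted p = 0.25), and -0.14 in the male arrays. In the male arrays the globin genes Hbb-bt (1.21) and Hba-a2 (0.67) and the adipocyte genes Retn (0.96) and Cfd (0.68) rose, and the kidney transporter gene Slc12a3 (-0.43) fell. Summed linear levels of the 48 histone genes were 7764 to 9494 with CsA and 6770 to 8041 with vehicle, and overlapped. Genes with high readings weigh most in such a sum, and the H2B genes alone gave 4170 to 5736 and 4001 to 5251. The sums of the H2A genes (2175 to 2579 and 1822 to 1960) and H4 genes (687 to 899 and 502 to 625) did not overlap. Those of H1, H2B and H3 did.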

How the data were processed

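Kidney RNA of 10 mouse samples was read on Affymetrix Mouse Gene ST 2.0 arrays, 1 per sample, per the labels' protocols. The deposited values were log2 expression values by the authors, with RMA and Partek 6.4 named in the submitters' processing notes, without order or settings. The genome build was not given in the sources used here. RMA sets arrays to a common distribution, so a shift shared by most genes would not be seen. Array medians were 5.139 to 5.209, correlations between arrays were 0.9758 to 0.9889, and the number of arrays limits the precision.

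The 41345 features, 8874 of them without a symbol, were named through the RefSeq gene table of GRCm38.p6 (21749 by accession, 2411 by gene identifier, 4218 by symbol, 219 by synonym, 3874 with the deposited symbol kept). For each of the 30894 genes the feature of highest mean was kept. Groups came from the samples' source descriptions. The groups were compared with the 2-sided moderated test of limma (version 3.58.1, R 4.3.3), without covariates or a filter. The procedure was run on simulated arrays with planted changes and noise drawn independently for each gene. Genes that vary together and arrays with female RNA were not simulated.

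The histone genes, the other lists and the naming rule were chosen with earlier results of these data known. Named were every histone gene that passed, in each class the gene with the highest reading and those with the largest and smallest difference, up to 6 passing genes of each list, and a set fixed by name. Hist4h4, Hist1h2aa, Hist1h4b, Hist1h2bb, Hist1h2bl, Hist1h2bn, Hist1h2bq, Hist1h2ba, Hist1h2ak, Hist1h3i, Hist2h2be, Hist2h2bb, Hist3h2bb-ps, Rn7sk, Rnu11, Vaultrc5, Terc, Uhrf1 and the cell markers given values were named after their values were seen. H3f3a was not analysed here. Promoter sequences are RefSeq's, and only bases before the start were searched and printed.

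Alternatives were all features, averaged features per gene, array weights, a robust eBayes with trend, a second quantile normalization, filters on mean reading (median or 25th percentile), centring on array medians or within 20 gene length groups, a term for the arrays with female RNA, leaving those out, and leaving out each array.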

Additional observations from a re-analysis of the deposited data

Results flagged for a closer look

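In 52 named genes, each group of 5 arrays was examined for 1 array that stood far from the other 4 by Dixon's criterion. Of 104 groups 9 held such an array, and chance gives about 1 in 20. Among the histone genes, Hist2h2ab read 6.10 on CsA replicate 1, against 5.57 to 5.70 on the other CsA arrays, and Hist2h2ac read 7.21 on CsA replicate 5, against 7.33 to 7.37. The high array raised the difference of Hist2h2ab, and the low one reduced that of Hist2h2ac.

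Among the other genes, Casp8ap2 read 6.13 on vehicle replicate 2 (others 6.25 to 6.28) and Slbp 6.81 on vehicle replicate 1 (others 6.51 to 6.55). Rrm2 read 5.56 on CsA replicate 3 (others 4.92 to 5.07) and Top2a 4.35 on vehicle replicate 4 (others 3.96 to 4.03). Rnu12 read 7.04 on vehicle replicate 4 (others 7.26 to 7.33), Rny1 11.36 on vehicle replicate 5 (others 10.45 to 10.68) and Rpph1 11.42 on CsA replicate 4 (others 11.65 to 11.68).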

How the results depend on the processing

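Of the 8 histone genes that rose, 5 (Hist1h2bp, Hist1h3a, Hist1h4k, Hist2h2aa1 and Hist2h2ac) did so under every alternative that tested them. The 25th percentile and median filters left Hist1h2bp and Hist1h3a untested. The count was 5 without the 2 CsA arrays with female RNA, and 7 to 10 when 1 array was left out, with 0 to 1 falling. Hist2h2ab missed the threshold over all features, with centring on array medians, with quantile normalization again and with the term for female RNA, Hist1h2an with that term and Hist1h2ao with the mean of features. Hist4h4 rose with trend and robust, with quantile normalization again, under both filters and without CsA replicate 4.

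Over all genes, 605 rose with centring on array medians, 1476 rose and 1808 fell under the median filter, 501 and 510 with a term for the arrays with female RNA, and 473 and 507 without those arrays. With 1 array left out, 560 to 883 rose and 574 to 1044 fell: 604 rose without CsA replicate 2 and 597, 560 and 604 without vehicle replicates 2, 3 and 4, while 625 fell without CsA replicate 2 and 618, 582, 574 and 641 without vehicle replicates 1 to 4. Of the replacement histones 0 rose over all features or with centring on array medians, 1 fell with the mean of features, and 0 to 1 rose and 0 to 1 fell with 1 array left out. Of the processing genes 0 fell over all features, 1 fell with the term for female RNA or without those arrays, and 0 to 2 with 1 array left out. Of the chaperones 1 rose and 2 fell under the median filter, 1 fell with trend and robust or under the 25th percentile filter, and 0 to 1 with 1 array left out. Of the S phase genes 0 rose over all features, with length centring or with quantile normalization again, 2 with trend and robust, 3 with array weights or the 25th percentile filter, 5 under the median filter and 0 to 2 with 1 array left out. There 0 fell over all features, with the term for female RNA, without those arrays or with any 1 array left out, and 2 fell under the median filter. Of the snoRNA genes 1 fell with array weights, and 0 to 1 with 1 array left out. The 25th percentile and median filters, which test fewer genes, gave a median difference of 0.43 for H4 (both), 0.19 and 0.21 for Hist1 and -0.34 for Hist3 (both). No difference that passed the threshold changed sign. Differences near 0 did: with 1 array left out, Hist1h1c ran from -0.05 to 0.06, Hist1h2bc from -0.10 to 0.02, Hist2h3c1 from -0.02 to 0.09 and the H3 median from -0.02 to 0.09. Causes of the other changes were not tested.

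No paired analysis was possible because the replicate numbers were given in accession order and pair no samples. The planned comparison with the other deposited table was not run, since the tables were identical. Low readings near background limit the histone genes under the 25th percentile.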
